A study of Mus musculus with 4 samples.

Results

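The genes described here were listed for islet cells that do not make insulin. Those cells are the alpha cells, which secrete glucagon, the delta cells, which secrete somatostatin, and the PP cells, which secrete pancreatic polypeptide. The 8 genes listed were Irx1, Irx2, Pou3f4, Ttr and Gc for alpha cells, Hhex for delta cells, Etv1 for PP cells and Fev, a factor of endocrine progenitors. Each was taken from the probeset (a group of probes designed to 1 transcript) that the array annotation pairs with that symbol alone. This gave 6 of the 8 genes among 22180 genes in all. Fev and Gc had no such probeset and were not analysed here. Etv1 had 2, of which the brighter stood for the gene.

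Islets, the endocrine cell clusters embedded in the pancreas, came from C57BL/6 mice aged 5 to 6 months, either WT littermates or mice with a GPR41 transgene (Tg), with 2 arrays in each group. Ffar3 is the mouse gene of GPR41, a cell surface receptor that senses short-chain fatty acids. All islets of both groups spent time in RPMI medium ahead of RNA purification, and the labels give no other treatment. They give neither the promoter of the transgene nor the number of founder lines, and they do not say whether an array holds islets of 1 mouse or of a pool.

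Values are log2 signals, so that a difference of 1 is a 2-fold change, and every difference is Tg minus WT. A gene passed the test at a Benjamini-Hochberg adjusted p under 0.05 over all 22180 genes in limma, a linear model that borrows variance information across genes. Ffar3 rose in Tg islets, from 7.09 and 6.47 in WT islets to 11.02 and 10.98 in Tg islets (difference 4.22, SE 0.21, adjusted p = 0.0020). Array medians lay between 6.43 and 6.47. The islet hormone genes were bright: Gcg (glucagon), Sst (somatostatin), Ppy (pancreatic polypeptide), Pyy (peptide YY) and Ins2 (insulin) were at 12.46 or above on every array. Genes of acinar cells, which release digestive enzymes, were bright too, so the RNA was not of islet cells alone. Of 11 measured acinar genes, 8 lay above the third quartile of genes on every array. Ctrb1, an acinar gene named after its values were seen, had 13.56 and 13.89 in WT and 13.83 and 13.67 in Tg islets. In whole islets, fewer cells of a type and less RNA per cell cannot be told apart. Nor can the signal of a listed gene be assigned to 1 cell type, and beta cells may carry part of it.

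The fate of an islet cell is set by transcription factors, proteins that bind DNA and switch genes on or off, and each hormone-producing cell type keeps a combination of them in adult life. Alpha cells carry the homeodomain factors Irx1 and Irx2 of the Iroquois family and the POU factor Pou3f4 (also Brn4), which binds the glucagon gene promoter. Delta cells depend on the homeodomain factor Hhex. Etv1 and Fev belong to the ETS family. Ttr and Gc are not regulators but secreted carriers, for thyroid hormone together with retinol-binding protein, and for vitamin D. Both are best known as liver proteins, and both were listed here as alpha cell genes.

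The difference was below 0 in all 6 measured genes, from -0.26 for Pou3f4 to -0.94 for Etv1, with a median of -0.56. Over all genes tested the median was -0.02, and 54.3% of genes were below 0. None of the 6 passed the test, against a background of 0.897% of genes past it and 0.225% past it and lower. At an unadjusted p under 0.05, 4 of the 6 were lower in Tg (Etv1, Irx2, Irx1 and Ttr), where 5.72% of all genes were. The same 4 had Tg arrays that both lay under both WT arrays, which held for 23.7% of all genes. The median of the 6 was -0.42 without WT replicate 1 and -0.80 without Tg replicate 2.

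Etv1 showed the widest separation. Its signal was 10.13 and 9.77 in WT and 8.98 and 9.04 in Tg islets. Both Tg arrays were low and nearly equal, and the gap of 0.73 between the groups was wider than the 0.36 between the WT arrays and the 0.06 between the Tg arrays. Of the 6 genes Etv1 alone had a gap wider than the distance within either group, which 8.37% of all genes had in this direction. The difference was -0.94 (SE 0.15, 95% confidence interval -1.30 to -0.58), a 1.92-fold lower signal in Tg, with an adjusted p of 0.066 that missed the threshold. It was under 0.05 with a filter on dim genes (adjusted p = 0.045) and with a variance trend (0.036). It rose to 0.560 in an ordinary linear model without moderation.

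The dimmer Etv1 probeset gave the same picture. Its signal was 9.28 and 9.0 in WT and 7.91 and 8.18 in Tg islets. The groups were again apart, by a gap of 0.82 against 0.27 and 0.28 within them. Tested as a feature of its own among all single-symbol probesets, it had a difference of -1.10 (SE 0.15) and an adjusted p of 0.051.

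Irx2 came next among the 6. Its signal was 8.63 and 8.30 in WT and 7.36 and 7.85 in Tg islets. The groups did not overlap, and Tg replicate 1 was the lowest array, 0.49 below the other Tg array, while the gap between the groups was 0.44. The difference was -0.86 (SE 0.20, 95% confidence interval -1.36 to -0.36), a 1.81-fold lower signal, with an adjusted p of 0.177.

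Irx1 followed the array order of Irx2. Its signal was 6.90 and 6.61 in WT and 5.80 and 6.37 in Tg islets. The groups did not overlap, but the gap of 0.25 was narrower than the 0.56 between the Tg arrays. The difference was -0.67 (SE 0.21, 95% confidence interval -1.20 to -0.15), a 1.59-fold lower signal, with an adjusted p of 0.300. Without Tg replicate 1 it was -0.39.

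Pou3f4, the third alpha cell factor, was dim, below the median gene on all 4 arrays. Its signal was 6.18 and 5.56 in WT and 5.53 and 5.70 in Tg islets. WT replicate 1 alone was high, and the other WT array lay between the Tg arrays. The difference was -0.26 (SE 0.22, 95% confidence interval -0.79 to 0.28, adjusted p = 0.734), and it was 0.058 without WT replicate 1.

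Ttr, the carrier protein, was among the brightest features of the arrays, brighter than 99.9% of genes by its mean. Its signal was 13.50 and 13.25 in WT and 12.73 and 13.12 in Tg islets. The groups did not overlap, but the gap of 0.12 was narrower than the distance between the arrays of either group. The difference was -0.45 (SE 0.17, 95% confidence interval -0.87 to -0.03), a 1.36-fold lower signal, with an adjusted p of 0.395, and it was -0.25 without Tg replicate 1. The highest value on any array was 13.89, so a difference at this level may be compressed.

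Hhex, the delta cell factor, had a signal of 7.13 and 6.94 in WT and 7.0 and 6.42 in Tg islets. Only Tg replicate 2 was low, and Tg replicate 1 lay between the WT arrays. The difference was -0.32 (SE 0.20, 95% confidence interval -0.83 to 0.18, adjusted p = 0.619), and it was -0.04 without Tg replicate 2.

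**Figure D1:**
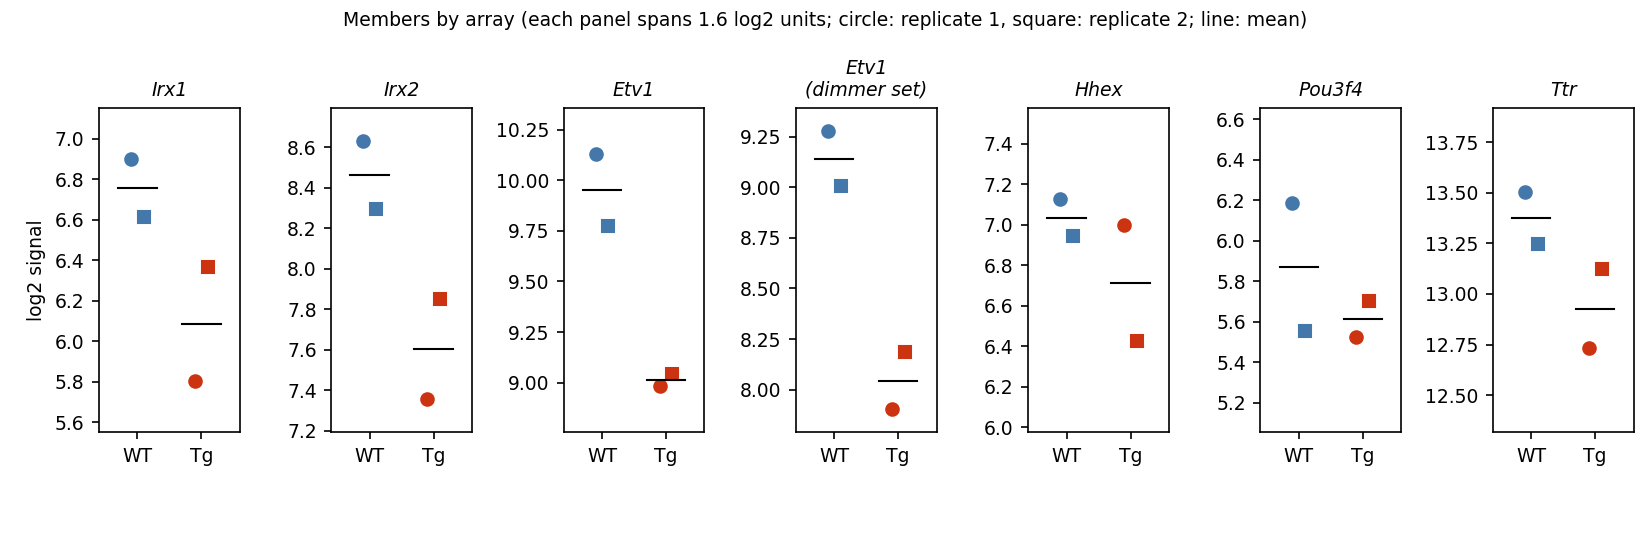
log2 signal (vertical axes, each spanning 1.6 log2 units at its own level) of the 6 genes and of the dimmer Etv1 probeset on the 2 WT (blue) and 2 Tg (red) arrays, with circles for replicate 1, squares for replicate 2 and lines for group means. Groups are apart for Irx1, Irx2, both Etv1 probesets and Ttr, and overlap for Hhex and Pou3f4.

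The order of the arrays within a group was shared by most of the genes. WT replicate 1 was above WT replicate 2 in all 6 (55.5% of all genes). Tg replicate 2 was above Tg replicate 1 in 5 of 6 (51.4% of all genes), Hhex being the exception. This order was not particular to the 6. In the beta cell list, which holds none of them, 10 and 9 of 10 measured genes had it within WT and within Tg. The counts were 8 and 1 of 9 in the delta cell list and 1 and 2 of 11 in the acinar list. The likeness of 2 genes was measured as the root mean square distance between their log2 values over the 4 arrays, each centred on its own mean. Irx1 and Irx2 were the closest pair among the 6, at 0.10, and Irx2 and Hhex the farthest, at 0.46. Etv1 was 0.16 from Irx2 and 0.22 from Irx1. With 4 arrays many genes share a profile by this measure. Predicted and unnamed genes left out, 12 genes lay within 0.1 of Irx1, 15 of Irx2 and 26 of Etv1. For Hhex, Ttr and Pou3f4 the counts were 74, 100 and 114.

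Among all genes with a regular name, Agpat4, an acyltransferase gene, was nearest to Irx1 (distance 0.06, difference -0.73), followed by the zinc finger factor gene Snai2 (0.07, difference -0.77) and the kinase gene Wnk3 (0.08, difference -0.72). Wnk3 also stands in the list of alpha cell markers used here. Snai2 (0.06), Lpl, the lipoprotein lipase gene (0.07, difference -0.81), and Agpat4 (0.07) were nearest to Irx2. Pcp4, a calmodulin-binding protein gene (0.04, difference -0.88), A1cf, a factor in apolipoprotein B RNA editing (0.04, difference -0.89), and Pitpnm2 (0.05, difference -0.86) were nearest to Etv1. None of these neighbours passed the test.

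The hormone genes of the same cells were set beside these genes, which gives each cell type a product and a regulator. Gcg had a signal of 13.64 and 13.61 in WT and 13.45 and 13.50 in Tg islets, a difference of -0.15 (SE 0.10, adjusted p = 0.649). Both Tg arrays lay below both WT arrays. Gcg lay near the top of the signal range, where its difference may be compressed, so the sizes cannot be compared between these genes.

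For the delta cell pair, Sst had a signal of 13.43 and 13.21 in WT and 13.14 and 12.87 in Tg islets. Its Tg arrays lay below its WT arrays, with a difference of -0.32 (SE 0.14, adjusted p = 0.467). It was -0.18 without Tg replicate 2 and -0.46 without Tg replicate 1. Hhex, at -0.32 over all arrays, was at -0.04 and -0.61 in turn. For the PP cell pair, Ppy had a signal of 13.69 and 13.62 in WT and 13.79 and 13.65 in Tg islets, a difference of 0.06 (SE 0.11, adjusted p = 0.900). Pyy, peptide YY, which PP cells share with other islet cells, had a difference of -0.21 (SE 0.14) with overlapping groups. Ppy and Sst also lie near the top of the signal range.

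**Figure D2:**
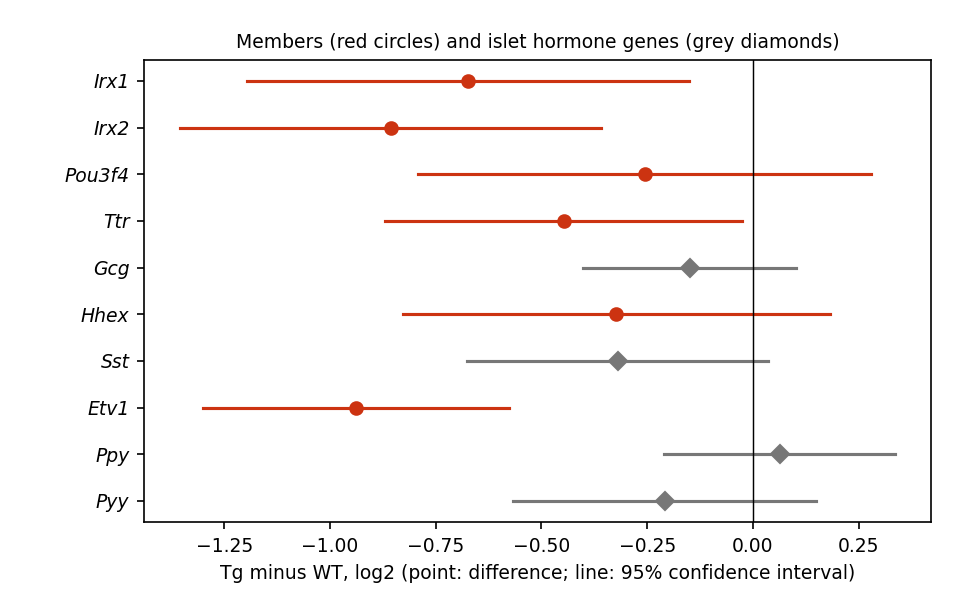
Difference between Tg and WT (horizontal axis, log2) with its 95% confidence interval for the 6 genes (red circles) and 4 islet hormone genes (grey diamonds), grouped by cell type. The intervals of Etv1, Irx2, Irx1 and Ttr lie below 0 before adjustment, while those of Gcg, Sst, Ppy and Pyy include 0.

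Irx1 and Irx2 lie next to each other in a chromosomal cluster with Irx4, with 0 other protein-coding genes between neighbours in the GRCm38.p6 annotation, and Irx3, Irx5 and Irx6 form a second cluster. Irx4, the third gene of the first cluster, had a signal of 5.20 and 5.24 in WT and 5.38 and 5.37 in Tg islets, with a difference of 0.16 (SE 0.10, adjusted p = 0.625). Irx3 was at 0.18, Irx6 at 0.10 and Irx5 at -0.04. Irx4, Irx5 and Irx6 were named after their values were seen. The 4 relatives lay below the median gene on all 4 arrays, where differences can be compressed. Of the 6 Iroquois genes 0 passed the test, against 0.897% of all genes. At an unadjusted p under 0.05, Irx1 and Irx2 were the only 2 of the family, both lower, against 5.72% of all genes. The low level of the other 4 limits what this count says about the family.

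**Figure D3:**
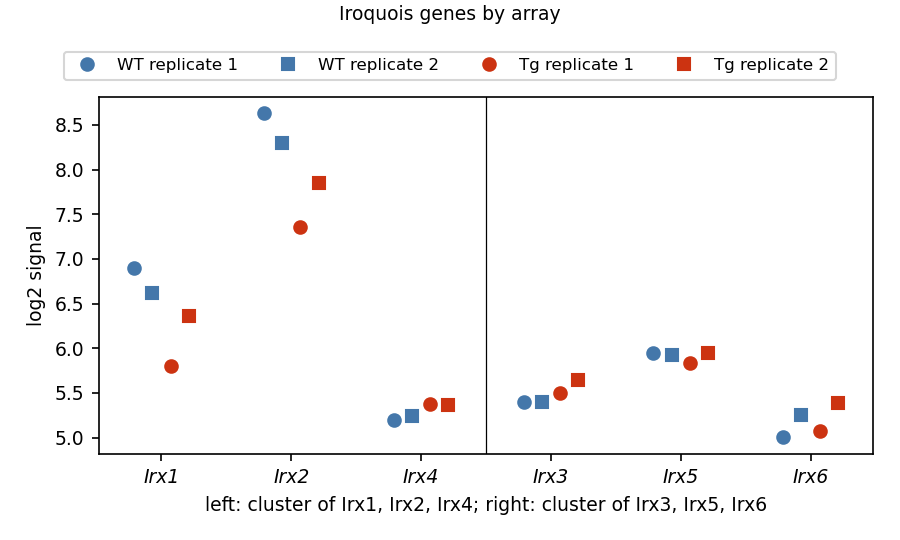
log2 signal (vertical axis) of the 6 Iroquois genes on each array, with the cluster of Irx1, Irx2 and Irx4 on the left and that of Irx3, Irx5 and Irx6 on the right; blue marks WT, red Tg, circles replicate 1 and squares replicate 2. Irx1 and Irx2 have Tg arrays below WT arrays, and the other 4 genes stay below 6 on every array.

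The sequence just before the gene's start is shown for 1 transcription factor of each cell type, Etv1 for PP, Hhex for delta and Pou3f4 for alpha cells, so that the DNA of the genes with the widest and the least separation can be read side by side. Each is the 250 bases before the start site on the plus strand, 5′ to 3′, from RefSeq on build GRCm38.p6. Capitals mark the ETS core GGAA or its complement TTCC, the letters that factors of the family of Etv1 and Fev recognise.
Etv1, chr12:38779832-38780081: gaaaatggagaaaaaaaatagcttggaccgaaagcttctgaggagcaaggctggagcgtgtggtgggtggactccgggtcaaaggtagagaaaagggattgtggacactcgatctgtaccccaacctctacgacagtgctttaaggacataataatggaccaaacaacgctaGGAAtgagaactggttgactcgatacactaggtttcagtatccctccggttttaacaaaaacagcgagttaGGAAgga
Hhex, chr19:37434591-37434840: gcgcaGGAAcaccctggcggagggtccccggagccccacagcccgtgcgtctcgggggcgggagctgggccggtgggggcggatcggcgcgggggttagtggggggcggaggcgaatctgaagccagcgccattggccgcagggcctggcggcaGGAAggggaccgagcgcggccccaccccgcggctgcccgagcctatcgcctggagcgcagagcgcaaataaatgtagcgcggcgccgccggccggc
Pou3f4, chrX:110814129-110814378: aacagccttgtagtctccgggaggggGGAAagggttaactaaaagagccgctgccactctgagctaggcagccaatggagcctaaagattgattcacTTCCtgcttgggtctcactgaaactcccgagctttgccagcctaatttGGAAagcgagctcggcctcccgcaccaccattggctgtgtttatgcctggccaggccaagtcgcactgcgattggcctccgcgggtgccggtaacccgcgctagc
The promoter table held 4 of the 6 measured genes, not Irx1 and Ttr, with 2 start sites for Etv1 and 1 for each other gene. Only windows wholly outside the gene's annotated span are printed. The printed Etv1 window held 2 ETS cores, the Hhex window 2 and the Pou3f4 window 3. Of 32851 windows of this length, 93.4% held at least 1, with a median of 3. The windows not printed, at the other Etv1 start site and at Irx2, held 1 and 5. The homeodomain core TAAT or ATTA occurred 2 times in the printed Etv1 window, 1 time in that of Pou3f4 and 0 times in that of Hhex. It occurred 4 times in the other Etv1 window and 0 times in that of Irx2, and was in 54.9% of all windows. The Iroquois site ACANNTGT (6.31% of all windows) and the octamer ATGCAAAT or ATTTGCAT of POU factors (1.6%) were both searched on both strands. They had 0 matches in the 3 printed windows. GC content was 46.4% for Etv1, 58% for Pou3f4 and 76% for Hhex. A match of letters is a description and not a binding site.

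The wider alpha cell list, which holds Irx1, Irx2, Pou3f4 and Ttr, had 13 genes, of which 9 were measured. All 9 were below 0 (54.3% of all genes) and 8 had Tg arrays below WT arrays (23.7% of all genes), with a median of -0.51. None passed the test, and 6 were lower at an unadjusted p under 0.05 (5.72% of all genes). Irx1, Irx2, Pou3f4 and Ttr are counted here again. Slc7a2, a cationic amino acid transporter gene, had 10.89 and 10.61 in WT and 10.22 and 10.26 in Tg islets (difference -0.51, SE 0.13, adjusted p = 0.209). Both its Tg arrays were low, by more than the distance within either group. The amino acid transporter gene Slc38a5 was at -0.60 (SE 0.22) and Wnk3 at -0.72 (SE 0.23; -0.47 without Tg replicate 1). Sstr2, a somatostatin receptor gene, was at -0.14. Slc38a5 and Sstr2 were named after their values were seen. The list median was -0.32 without WT replicate 1.

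The delta cell list had 9 genes, all measured, with 8 below 0 (54.3% of all genes) and a median of -0.32. None passed the test, and 3 were lower at an unadjusted p under 0.05, against 5.72% of all genes. These were Casr, the calcium-sensing receptor gene, Ghsr, the ghrelin receptor gene, and Ptprz1, a receptor phosphatase gene. Casr had 10.35 and 10.46 in WT and 9.89 and 9.77 in Tg islets (difference -0.58, SE 0.11, adjusted p = 0.109). Its groups were well apart. Ghsr was at -0.50 (SE 0.17) and Ptprz1 at -0.54 (SE 0.22), and without WT replicate 1 they were at -0.28 and -0.245. Rbp4, the retinol-binding protein that travels in blood with transthyretin, was at 0.04 (SE 0.14) with overlapping groups. The list median was -0.12 without Tg replicate 2 and -0.21 without WT replicate 1.

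The PP cell list had 7 genes, all measured, with a median of 0.01, and Etv1 stood apart from the others in it. Id4, an inhibitor of helix-loop-helix factors, was at 0.48 (SE 0.11, adjusted p = 0.181) with both Tg arrays above both WT arrays. The homeodomain factor gene Meis1 was at -0.29 (SE 0.11). None of the 7 passed the test, with 2 lower (Etv1 and Meis1) and 1 higher (Id4) at an unadjusted p under 0.05, where 6.13% of all genes were higher. The list median was -0.05 without Tg replicate 1 and 0.08 without Tg replicate 2. In the epsilon cell list of 2 genes, Ghrl (ghrelin) was at -0.34 (-0.15 without WT replicate 1) and Mboat4, the ghrelin acyltransferase gene, at -0.16 (-0.04 without WT replicate 2).

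Transcription factors of endocrine cell fate were measured for 14 of 15 listed, and 11 were below 0 (54.3% of all genes), with a median of -0.20 and 0 past the test. Neurog3, which starts the endocrine programme in progenitors, had 6.60 and 6.30 in WT and 5.76 and 5.74 in Tg islets (difference -0.70, SE 0.13, adjusted p = 0.109). Its Tg arrays nearly coincided and lay below both WT arrays. In both of them and in WT replicate 2 it was below the array median, where differences can be compressed. Foxa2 was at -0.48 (SE 0.11) and Insm1 at -0.39 (SE 0.12), and these 3 were the ones lower at an unadjusted p under 0.05, against 5.72% of all genes. The list median was -0.07 without WT replicate 1. In the beta cell list, 6 of 10 measured genes were below 0 (54.3% of all genes), with a median of -0.08. In that list 0 passed the test, against 0.897% of all genes. Ucn3, the urocortin 3 gene of mature beta cells, was at -0.60 (SE 0.14) and the zinc transporter gene Slc30a8 at -0.33 (SE 0.13; -0.19 without WT replicate 1). Ins2 was at 0.04 (SE 0.11). The beta cell median was -0.17 without WT replicate 2 and 0.04 without WT replicate 1.

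**Figure D4:**
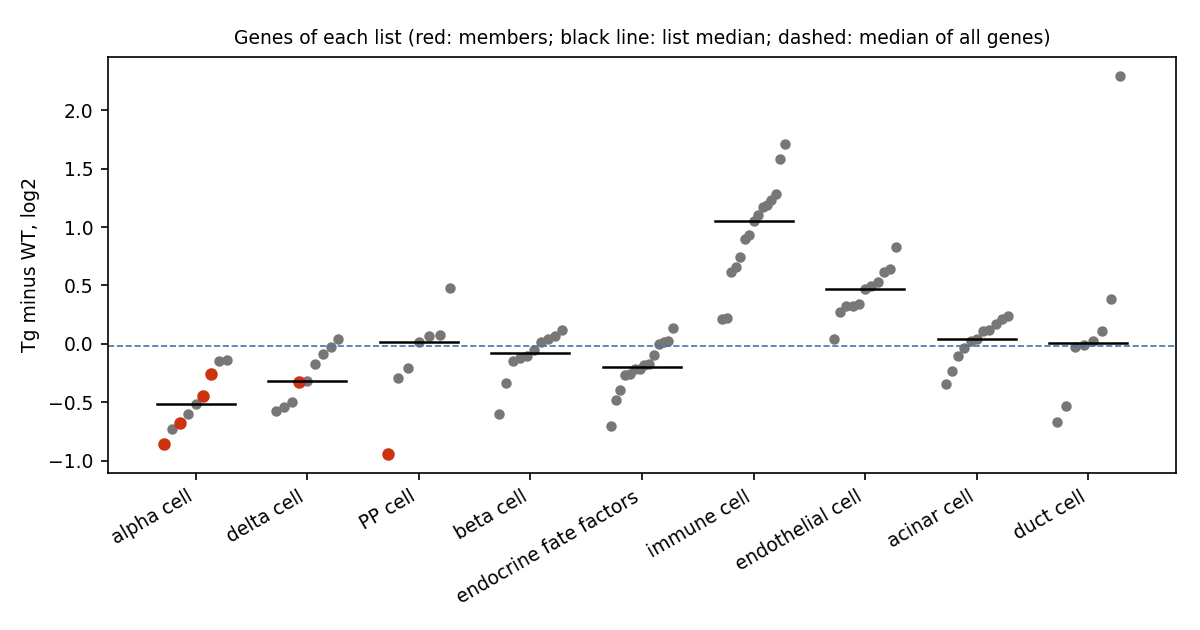
Difference between Tg and WT (vertical axis, log2) for every measured gene of 9 gene lists, with the 6 genes in red, list medians as black lines and the median of all genes, -0.02, dashed. The alpha cell list lies wholly below 0 and the immune cell list wholly above, and Etv1 sits apart below the rest of the PP cell list.

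Markers of other cell types differed between the arrays as well. All 15 measured immune cell markers were above 0, while 54.3% of all genes were below 0. The list averaged 7.46 and 7.25 in WT and 8.57 and 8.09 in Tg islets. Groups were apart in 14 of them, against 18.6% of all genes higher in Tg, and 1 passed the test, against 0.672% of all genes higher: Coro1a, an actin-binding protein gene of leukocytes, which rose by 0.94 (SE 0.10, adjusted p = 0.031). The macrophage marker Cd68 was at 0.75 (SE 0.11) without passing. Tg replicate 1, the array with the highest immune mean, was also the lowest for Irx1, Irx2, Etv1, Pou3f4 and Ttr. All 11 endothelial markers were above 0 too, with means of 8.29 and 8.10 in WT and 8.79 and 8.49 in Tg islets. Groups were apart in 10 of them, against 18.6% of all genes higher in Tg. None passed the test, against 0.672% of all genes past it and higher. Cd34 was at 0.83 (adjusted p = 0.177) and Cdh5 at 0.62 (adjusted p = 0.213).

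Acinar markers, made by the cells that release digestive enzymes, split the arrays of a group rather than the groups. Their means were 10.58 and 11.57 in WT and 11.25 and 10.93 in Tg islets, with a median difference of 0.04 over 11 measured genes, which was -0.50 without WT replicate 1 and 0.55 without WT replicate 2. Their lowest array, WT replicate 1, was the highest for all 6 genes described here. Bhlha15, with the smallest p of the acinar list, was at 0.24 (SE 0.11, adjusted p = 0.497), with both Tg arrays above both WT arrays. Duct markers followed the array order of the acinar means, with means of 8.13 and 9.12 in WT and 8.95 and 8.70 in Tg islets. Of 8 measured duct genes, 4 were above 0 and 4 below (54.3% of all genes). Their median was 0.0050, and it was -0.30 without WT replicate 1 and 0.41 without WT replicate 2. The 1 past the test was the chloride channel gene Cftr, against 0.672% of all genes past it and higher. Cftr rose by 2.30 (SE 0.23, adjusted p = 0.021). Tspan8, with the next smallest p, was at 0.38 (SE 0.20, adjusted p = 0.534) with overlapping groups. The part of immune, endothelial, acinar and duct RNA in the differences of the 6 genes was not tested. Since Ttr is also a liver product, 11 hepatocyte markers were read, Ttr included. Of these, 8 lay below the median gene on all 4 arrays and Ttr alone lay above the third quartile on all of them. Fga, with the smallest p of these, was dim, at 4.43 and 4.30 in WT and 4.81 and 4.63 in Tg islets. Its difference was 0.36 (SE 0.12, adjusted p = 0.342). Alb, the albumin gene, named after its values were seen, had 6.94 and 6.99 in WT and 6.33 and 7.88 in Tg islets, with overlapping groups.

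**Figure D5:**
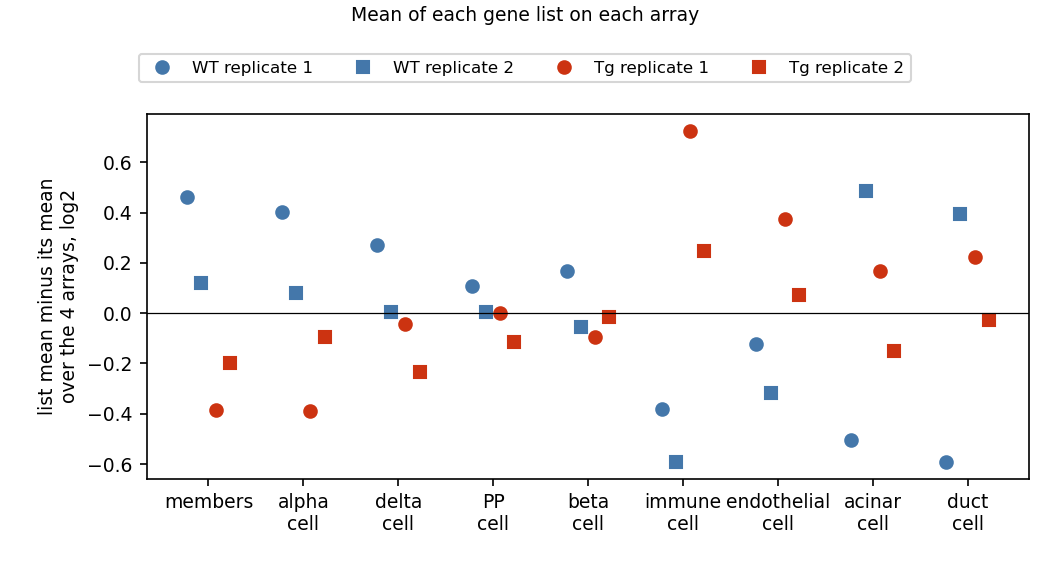
Mean log2 signal of each gene list on each array, minus its mean over the 4 arrays (vertical axis), with blue for WT, red for Tg, circles for replicate 1 and squares for replicate 2. The 6 genes and the alpha cell list have WT above Tg with WT replicate 1 highest, the immune and endothelial lists have Tg above WT, and the acinar and duct lists have WT replicate 1 lowest.

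Fev could not be read, but 17 listed serotonergic genes were measured. Which of them Fev controls was not tested, so they do not stand in for Fev. Tph1 and Tph2, which encode the rate-limiting enzymes of serotonin synthesis, both rose and were the only 2 past the test, against 0.672% of all genes past it and higher. Tph1 rose by 4.0 (SE 0.23, adjusted p = 0.0036), from 4.45 and 5.09 in WT islets to 8.61 and 8.93 in Tg islets, and Tph2 by 1.73 (SE 0.15, adjusted p = 0.016). Both genes were dim in WT islets, so the size of the differences is uncertain. Slc18a1, a vesicular monoamine transporter gene, was at 1.01 (SE 0.21, adjusted p = 0.136). Lmx1b, a homeodomain factor gene of serotonergic neurons named after its values were seen, was at -0.42 (SE 0.13, adjusted p = 0.282), with both Tg arrays below both WT arrays. The list median was 0.03, with 12 genes above 0 and 5 below (54.3% of all genes). At an unadjusted p under 0.05, 4 were higher (6.13% of all genes) and Lmx1b was the 1 lower (5.72% of all genes).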

How the data were processed

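RNA of mouse islets was measured on Affymetrix Mouse Gene 2.0 ST arrays from 250 ng of total RNA, per the labels' protocols. The range of the deposited values, 2.87 to 13.9, shows a log2 scale. Partek and RMA are named in the submitters' processing notes, without versions. RMA corrects background, equalises arrays by quantiles and summarises probes. Of 27037 probesets, 23521 had 1 gene symbol, 1814 had several and 1702 had none. The last 2 kinds were left out. The brightest probeset by mean stood for each gene, which left 1341 unused.

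Groups came from the sample titles. Tg was compared with WT in limma 3.58.1 (lmFit, eBayes) under R 4.3.3, and p-values were adjusted by Benjamini-Hochberg over 22180 genes. The fit had 2 residual and 3.76 prior degrees of freedom. Titles describe the arrays as biological replicates, and their number limits the precision. The fit was tested on simulated data.

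The members and the 18 gene lists (185 of 204 symbols measured) were chosen with earlier results of these data known. Named were the members, list genes past the test, the 3 or, in lists of other cell types, 2 with the smallest p of each list, a fixed set of hormone and marker genes, and the 3 genes nearest in profile to each of the 3 members with the smallest p (Etv1, Irx2 and Irx1). Slc38a5, Sstr2, Lmx1b, Irx4, Irx5, Irx6, Alb and Ctrb1 stand outside this rule. Alternatives covered the probeset choice, a level filter, normalisation, the variance model, the replicate block and each array left out. No probeset coordinates are printed, the authors' genome build being not given in the sources here.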

Additional observations from a re-analysis of the deposited data

How the results depend on the processing

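Against 0 of the 6 measured genes past the adjusted threshold, 1 passed with a filter at the median level, with a variance trend and with a variance trend and robust prior. It was Etv1 each time. With each array left out the count stayed at 0, and in the ordinary linear model it was 0, with 1 at an unadjusted p under 0.05. The median difference of -0.56 lay between -0.80 and -0.42 when single arrays were left out. Over all genes, the 199 past the threshold became 347 with a variance trend and robust prior, 24 with the replicate block and 0 in the ordinary linear model (1928 unadjusted, against 2627 in limma). The count lay between 38 and 135 when single arrays were left out. The replicate block left 0 of the 6 past the threshold, 3 at an unadjusted p under 0.05, and Etv1 at an adjusted p of 0.217. The difference between replicates 1 and 2 in WT correlated at -0.063 with that in Tg over all genes, and the labels do not say that a number marks a shared litter or day. In 82 alternatives the 6 genes kept their call in 78, gained one in 3 and turned sign in 1. With each array left out, Pou3f4 lay between -0.57 and 0.058, Ptf1a, an acinar factor gene, between -0.75 and 0.29, Ppy between -0.0071 and 0.13, Ins2 between -0.016 and 0.096, and the carrier gene Rbp4 between -0.12 and 0.21. The cause was not tested. Pou3f4 and the 4 Iroquois relatives lie below the median gene on all arrays, where differences can be compressed.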

Other observations

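Relatives of the factors and partners of the carriers gave further values. Of 26 ETS factor genes, 25 were measured, with a median difference of -0.02, 12 above 0 and 13 below (54.3% of all genes). The 1 that passed the test, against 0.672% of all genes past it and higher, was Spic, a factor of red pulp and other resident macrophages, which rose by 2.57 (SE 0.21, adjusted p = 0.014), from 5.56 and 5.04 in WT islets to 7.69 and 8.06 in Tg islets. Fli1, an ETS factor of endothelial and blood cells, was at 0.84 (SE 0.19). At an unadjusted p under 0.05, Etv1 was the 1 ETS gene lower, against 5.72% of all genes, and 5 were higher, Spic included, against 6.13%. The immune cell markers given above were above 0 in 15 of 15.

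Of 14 POU factor genes, 10 were measured. None passed the test (0.897% of all genes), and 0 had an unadjusted p under 0.05 (11.8% of all genes). Pou3f1 was at -0.24, Pou6f1 at -0.20 and Pou4f3 at 0.28, and 9 of the 10 lay below the median gene on all arrays. Among 17 measured carriers and receptors for vitamin A, vitamin D and thyroid hormone, 9 were above 0 and 8 below (54.3% of all genes). Their median was 0.0038, and 0 passed the test, against 0.897% of all genes. Vdr, the vitamin D receptor gene, had 10.46 and 10.30 in WT and 10.01 and 10.00 in Tg islets (difference -0.38, SE 0.11, adjusted p = 0.266). Rara, a retinoic acid receptor gene, was at -0.32 (SE 0.11). Among mesenchymal markers, 9 of 10 were above 0, with a median of 0.17, while 54.3% of all genes were below 0. None passed the test, against 0.897% of all genes. Groups were apart and higher in Tg in 5 (18.6% of all genes), apart and lower in 1 (23.7%) and overlapping in 4. Dcn, the decorin gene, was at 1.79 (SE 0.26, adjusted p = 0.054) and Pdgfrb at 0.38.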
